A study of Mus musculus with 21 samples.

Results

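The comparison set mesenchymal cells taken from the bone marrow late in a leukemia (late) against cherry-labelled mesenchymal cells taken early (ch+). It used 12 of the 21 libraries with known groups in the deposited table: 6 late libraries (HL60 397, 398 and 399, ML1 581, 582 and 583) and 6 early ch+ libraries (HL60 523, 524 and 525, ML1 538, 539 and 541). The libraries were assigned by the stage, marker and cell line in their titles. The question was how Nes low cells of heavily leukemic marrow differed from the cells that lay next to leukemia cells when the disease was still sparse.

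The study transplanted human acute myeloid leukemia (AML) cells into immunodeficient mice and sequenced RNA of sorted niche cells. All 12 libraries came from Nestin+ NSG mice, 8 to 12 weeks old at transplantation and not conditioned, that carry a Nestin-driven GFP by which low-expressing (Nes low) cells are sorted. HL60 and ML1 are established human AML cell lines, here carrying sLP-mCherry, a secreted red protein that crosses membranes and labels the cells around them. The ch+ libraries were gated for this label and the late libraries were not, so stage and gate differ together and cannot be told apart. The labels give no date of sorting or sequencing, so any difference in processing between the stages cannot be told apart from stage either. The untreated control libraries (ctrl, n = 3) and the early cherry-negative libraries (ch-, n = 6) are given beside some genes for orientation; they count in the filter on low values and in an alternative fit of all libraries, and not in the main test.

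Several labels bear on the reading. The 3 late ML1 libraries carry the treatment entry unengrafted, against their title and their time point, which both say late; results are therefore given with and without these libraries where they matter. The protocol in the labels speaks of sorted CD31+ endothelial cells, whereas the source field names Nes low mesenchymal cells. It also states that human and murine blood cells were removed with magnetic beads. By the methods, the cells left were stained for human and mouse CD45, for Ter119 of red cells and for CD31 ahead of the sort, a step that can remove blood cells further. The labels add that cDNA was amplified from a small amount of RNA. Whether libraries of a group came from separate mice is not stated, so the p-values measure the spread between these libraries.

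As background, Nes low stromal cells overlap largely with the reticular cells that surround marrow sinusoids and secrete the chemokine Cxcl12 and stem cell factor, on which blood stem cells depend. Such cells can give rise to bone-forming osteoblasts and to fat cells. Vessel walls of the marrow also carry pericytes and smooth muscle cells, whose contractile genes are shared in part by Nestin-expressing cells.

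The values are the authors' regularized log2 levels, on which a difference of 1 is a doubling. Regularization shrinks weak genes toward their own mean, so for them a difference of 1 can stand for more than a doubling of counts. All differences below are late minus ch+ on the regularized scale, each over 6 libraries against 6. A gene is called when its limma adjusted p is under 0.1 in a model with the cell line as a further term. Depth per library is unknown, because whole reads could not be recovered from the values and the methods give only a typical sequencing yield. Values converted back from the log2 scale summed to between 7.27 M and 9.02 M (mega units) in the late libraries and to between 11.2 M and 12.6 M in ch+. On the first principal component of the 12 libraries, with 37.9% of the variance, late HL60 libraries lay between 21.26 and 24.15, late ML1 libraries between 47.08 and 50.1, and ch+ libraries between −44.59 and −28.53. The late ML1 libraries were thus the farthest from ch+.

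Of 12976 genes tested, 2798 were called, which is 21.6% of all, with 1295 higher in late (9.98%) and 1503 lower (11.6%). The median difference over all genes was 0.02, and over the called genes the median absolute difference was 0.86. All 6 late libraries lay above all 6 ch+ libraries for 469 genes (3.61%) and below them for 667 (5.14%). For 318 of the former (2.45% of all tested) the late libraries also lay above the 3 ctrl libraries, and for 439 of the latter (3.38%) also below them. Without the 3 late ML1 libraries, 1309 genes were called (10.1%), 543 higher and 766 lower, and 1160 of the 2798 were called in both fits, which share 9 libraries. The direction of the calls rests on the authors' scaling: with each library rescaled to the same total, the median of all genes moved by 0.62 to 0.63 and the calls became 8754 higher and 602 lower, 93.6% higher against 46.3% as deposited. These totals rest in part on a single gene, the most abundant of every library, with 16.8% to 26.2% of the late totals and 26.5% to 31.7% of those of ch+. Without it the totals were 5.77 M to 6.66 M and 8.24 M to 8.97 M. The totals also hold other abundant genes that were lower in late. The osteoblast list, led by *Col1a1*, had a median sum of 409700 converted units in late and 1507000 in ch+. On the scale of library totals, a fall of such genes raises the values of all other genes. Differences are therefore relative to the bulk of genes, and gene lists are read beside the median of 0.02.

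The gate and the reticular genes come first. *Nes*, the intermediate filament gene behind the reporter, ranged from 6.66 over a median of 7.36 to 7.87 in late and from 6.61 over 7.30 to 7.65 in ch+. These groups overlapped almost fully. *Cxcl12* had medians of 16.17 and 16.09, and *Kitl*, which encodes stem cell factor, 10.96 and 10.90; neither was called. Under quantile normalization *Cxcl12* was called with a difference of 1.66, while the deposited scale gave 0.10. Quantile normalization sets values by rank, so the value of an abundant gene also moves with changes in other abundant genes. How far this applies to *Cxcl12* was not tested. Against ctrl medians of 15.11 for *Cxcl12* and 9.98 for *Kitl*, every late and ch+ library was above every ctrl library for both genes.

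*Lepr*, the leptin receptor by which adult marrow stromal cells are often traced (GRCm38 chr4:101717404-101815352), spanned 14.29 to 14.81 in late with a median of 14.62, against 12.83 to 13.71 with a median of 13.21 in ch+. The groups were fully apart, with every late library above every ch+ and ctrl library. The difference was 1.30 (SE 0.10, limma adjusted p = 2.27e-08). *Pdgfrb*, a receptor for platelet-derived growth factor on perivascular cells, was higher by 1.71, and *Cxcl14*, a chemokine of the same cells, by 1.29. *Adipoq*, the adiponectin gene that marks marrow reticular cells with fat-cell potential, differed by −1.11, its late median of 10.87 close to the 10.71 of ctrl and below the 12.11 of ch+. Among 18 reticular (CAR) cell genes, all tested, 7 were higher, 5 lower and 6 not called, with a median of 0.10 (5 higher, 1 lower and a median of 0.18 without the late ML1 libraries); without late 582 or late 583 the lower count was 3. The summed level of the list ran from 178600 to 216700 converted units in late and from 136900 to 188400 in ch+, with *Cxcl12* as the most abundant gene in both groups.

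Most erythroid genes tested were lower in late than in ch+. *Hbb-bs*, a beta-globin of red cells, had a median of 4.63 in late, between 4.44 and 4.87, and of 11.90 in ch+, between 10.90 and 12.47. No library of one group came near the other, and the ctrl libraries lay between, at 7.15 to 7.90. The difference was −7.18 (SE 0.21, limma adjusted p = 1.36e-14), the largest of all genes tested. *Hbb-bt*, *Hba-a1* and *Hba-a2*, the further adult globin genes, differed by −6.61, −6.61 and −5.71; they are near-identical copies within each cluster, so how reads were divided among them is uncertain. *Slc4a1*, the anion exchanger of the red cell membrane, differed by −4.41. Of 16 erythroid genes tested of 20 listed, 15 were lower and none higher, with a median of −2.66 and 13 lower without the late ML1 libraries. Without the filter on low values 15 of 19 were lower, with a median of −2.41.

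Most granulocyte genes were also lower in late than in ch+. *S100a9*, a subunit of the calprotectin complex of neutrophils, had medians of 3.56 in late and 9.04 in ch+, a difference of −5.28 (SE 0.31, limma adjusted p = 6.22e-10). Its highest late library stood at 4.34 and its lowest ch+ library at 8.04. *S100a8*, its partner, differed by −4.66, the granule protein gene *Ngp* by −5.02 and the myeloperoxidase gene *Mpo* by −4.78. Of 15 neutrophil genes tested of 20 listed, 13 were lower, none was higher and the median was −3.11; all 13 had every late library below every ch+ library. *Ptprc*, which encodes the pan-leukocyte antigen CD45 used to remove blood cells, was at 2.36 to 2.54 in late and 3.81 to 5.58 in ch+, lower by −2.36 on average. The late levels of *Ptprc* lay below the filter level of 3.32, so it passed the filter through the other groups.

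The summed converted level of the neutrophil list had a median of 489 in late, with a range of 278 to 977 and *Mmp9* as its most abundant gene, against 2580 in ch+, with a range of 1399 to 3329 and *S100a9* on top. The ctrl median was 277 and the ch- median 1891. For the erythroid list the late range was 286 to 410, led by *Car2*, and the ch+ range 5044 to 13840, led by *Hbb-bs*, with medians of 746 in ctrl and 8428 in ch-. Both early groups were thus high and both the late and ctrl groups low in these sums. Whether fewer cells of a type or less RNA per cell lies behind such a difference cannot be told apart in bulk libraries, and the part of blood-cell RNA in the other results was not tested.

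Other cell types were less uniform. Of 18 macrophage and osteoclast genes only 6 passed the filter level of 3.32. The defining markers *Adgre1*, *Csf1r* and *C1qa* lay below it in both groups, with means of 0.33, 2.15 and −1.48 in late. *Lyz2*, lysozyme of myeloid cells, differed by −2.18, and *Acp5*, the acid phosphatase of osteoclasts, by −1.90. *Mrc1*, the mannose receptor, differed by −0.90 and was not called without the late ML1 libraries. In that list 1 gene was higher and 3 lower, with a median of −0.64 (none higher and 2 lower without the late ML1 libraries, and none higher without late 398, 582 or 583, ch+ 523, 524 or 541, or the variance trend), and its summed levels, led by *Vcam1*, ran from 5204 to 8589 in late and 4905 to 6416 in ch+. Of 14 lymphoid and plasma cell genes 10 were below the filter, *Cd3e* among them at a mean of 0.61 in late, and 2 had no values. The 2 tested were listed for plasma cells, and 1 of them is also in the unfolded protein list. No listed B, T or NK cell gene was thus tested, and the list gives no reading on those cells. Of the 2 tested, 1 was lower (median 0.04, −0.12 without the late ML1 libraries and −0.01 without late 583 or ch+ 541), a call lost without late 398, ch+ 538 or the variance trend. In this list 1 gene was higher without late 397, late 399, ch+ 523 or ch+ 539, and in ML1 alone, among other settings. Of 12 megakaryocyte and mast cell genes 4 were tested, with 1 lower and a median of −0.18, which was 0.21, with 1 higher and none lower, without the late ML1 libraries and 0.44 on the scale of library totals. The lower call there was lost without late 581, 582 or 583 or ch+ 524, 538 or 541, and the median was −0.01 to −0.04 without late 581, late 583, ch+ 538 or ch+ 541.

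*Pecam1*, the CD31 gene of endothelial cells, ranged from 4.53 to 5.60 in late and from 5.31 to 6.21 in ch+, so the groups overlapped at a low level. Its difference was −0.87. *Cdh5*, the cadherin of endothelial junctions, differed by −0.75 and was not called without the cell line term, the phosphatase gene *Ptprb* by −1.19, the growth factor receptor gene *Kdr* by −1.02 and the sinusoidal scavenger receptor gene *Stab2* by −1.58. Of 14 endothelial genes tested, 7 were lower and 1 higher (median −0.61, and 0.00 on the scale of library totals), but the higher call was lost on leaving out any of 9 single libraries or the cell line term, and without the late ML1 libraries only *Stab2* kept its call among these 5. The summed level ran from 852 to 1328 in late and from 860 to 1570 in ch+, led by *Eng* in both, while *Cldn5* and *Tie1* were below the filter. *Pecam1* stayed at or below 6.21 in all 12 libraries. There was no sorted CD31+ library to compare with, so the CD31+ wording of the protocol was not tested.

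Most skeletal muscle genes tested were also lower in late. *Acta1*, skeletal actin, was at 2.53 to 2.89 in late and 5.32 to 8.32 in ch+, a difference of −4.38. The troponin gene *Tnnt3* differed by −2.99 and *Ttn*, which encodes titin, by −2.83. All 3 genes were fully apart between the groups. Of 8 muscle genes tested of 14 listed, 7 were lower, with a median of −2.61. The tested genes averaged 3.14 to 3.36 in the late libraries, against a filter level of 3.32 over all 21 libraries. *Acta1* lay below that level in late, so it passed the filter through the other groups. Without the filter on low values 12 of 14 were lower, with a median of −2.07. The summed level of the list had a median of 141 in late and 706 in ch+. The most abundant gene was *Actn3* in 4 late libraries, *Acta1* in ch+ 523 and ch+ 541, and *Ttn* in the others. The part of muscle RNA in the other results was not tested.

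*Ngfr*, the low-affinity nerve growth factor receptor (GRCm38 chr11:95568818-95587735), was the gene with the largest increase. Its late libraries ran from 9.72 over a median of 10.05 to 10.69, against 4.26 over 5.94 to 7.19 in ch+. Every late library was above every ch+ library and above the highest ctrl library at 7.63. The difference was 4.20 (SE 0.33, limma adjusted p = 1.64e-08), an 18.4-fold change, and 4.03 without the late ML1 libraries. *Ngfr* marks both Schwann cells and perivascular stroma. In the Schwann cell list 5 of 10 genes tested were higher and 2 lower, with a median of 0.53, and without the late ML1 libraries 3 were higher and none lower, with a median of 0.24. *Sox10*, the defining transcription factor of that lineage, had medians of 4.77 in late, 3.14 in ch+ and 5.48 in ctrl. The summed level overlapped, from 2424 to 4867 in late and 2731 to 4187 in ch+, led by *Pmp22* in all libraries but late 581 and late 582, where *Ngfr* itself led. *Mag* and *Gfap* were below the filter. The part of Schwann cell RNA in the level of *Ngfr* was not tested.

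**Figure D1:**
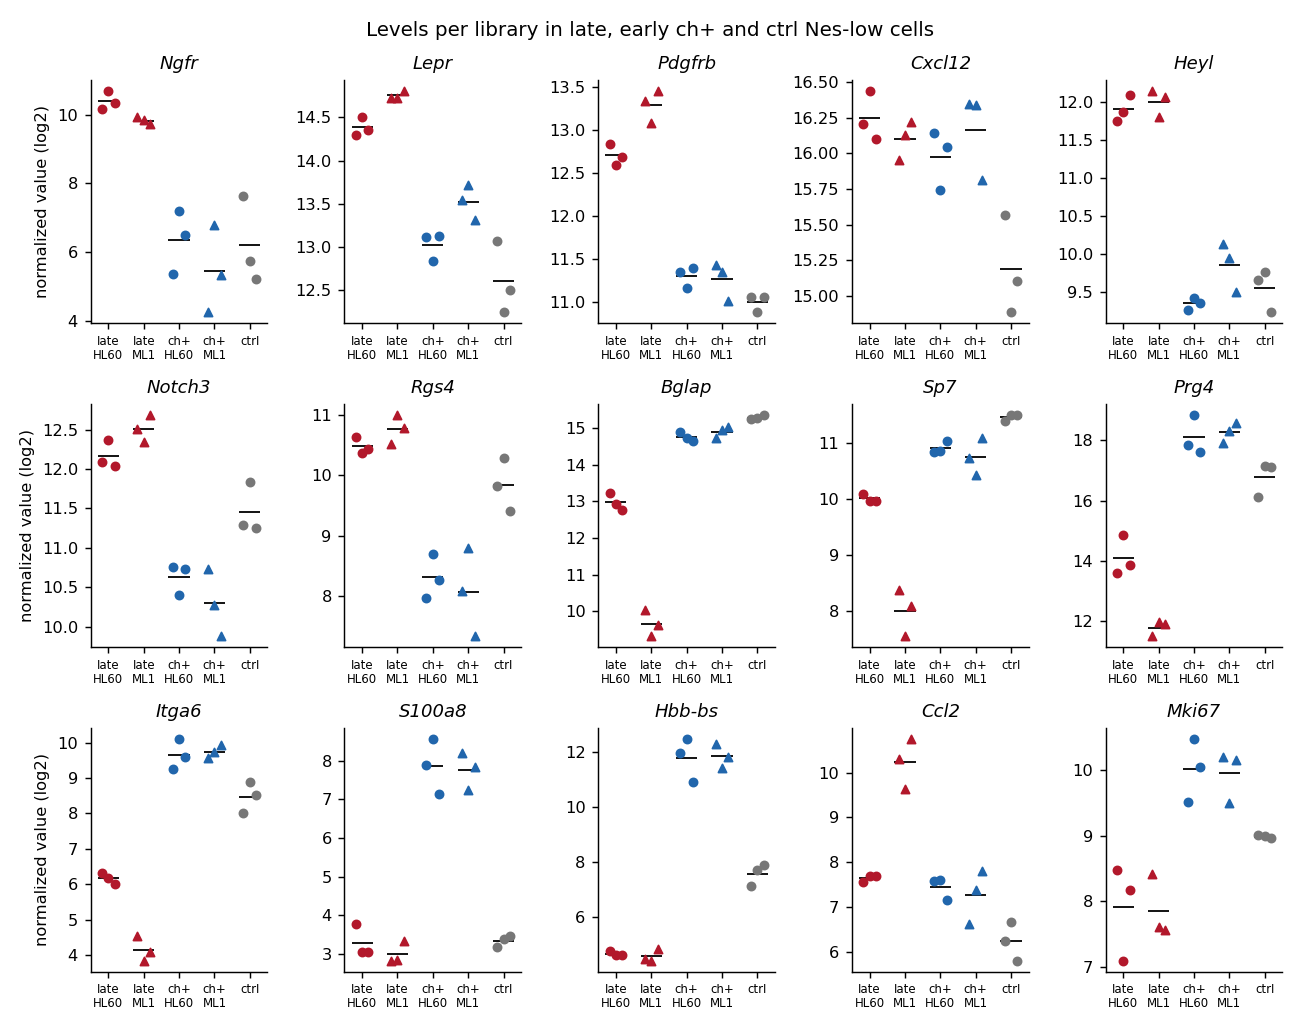
Normalized level (log2, vertical axes with a scale of their own) of 15 genes in each late (red), early ch+ (blue) and ctrl (grey) library, with circles for HL60 and ctrl, triangles for ML1 and a line at each mean. *Ngfr* lay between 9.72 and 10.69 in the late libraries and at or below 7.63 in the ch+ and ctrl libraries.

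Further genes stood highest in late by the same separation of all libraries. *Heyl*, a transcriptional target of Notch signalling (GRCm38 chr4:123233556-123249875), ran from 11.75 to 12.14 in late and from 9.26 to 10.13 in ch+. The gap was wider than the spread within either group, and the difference was 2.35 (SE 0.13, limma adjusted p = 1.97e-10). *Rgs4*, a regulator of G protein signalling found in pericytes, was higher by 2.43, and *Mgp*, the matrix Gla protein that inhibits calcification, by 2.27. *Adra2a*, an adrenergic receptor, was higher by 2.29. The serine protease inhibitor genes *Serpina3h* and *Serpina3f* were higher by 2.95 and 2.25, the latter not called without the late ML1 libraries. *Cdh6*, a cadherin, was higher by 2.22, the aryl hydrocarbon receptor gene *Ahr* by 2.14, the microfibril-associated *Adamtsl4* by 2.10, *Plat*, the tissue plasminogen activator, by 2.10 and the stromal protease gene *Mmp11* by 2.08.

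At the other end, *Prg4*, which encodes the lubricating proteoglycan of joints and periosteal tissue (GRCm38 chr1:150449412-150466165), ran from 17.61 over a median of 18.10 to 18.83 in ch+. In late it ran from 11.50 over a median of 12.79 to 14.85. The groups did not overlap, and ctrl libraries, at 16.11 to 17.15, were nearer to ch+ while the ch- median was 14.04. The difference was −5.23 (SE 0.35, limma adjusted p = 2.71e-09). *Itga6*, a laminin-binding integrin chain (GRCm38 chr2:71745616-71858416), differed by −4.54, with a late range of 3.84 to 6.31 and a ch+ range of 9.26 to 10.10. *F13a1*, the clotting factor XIII chain that crosslinks fibrin, differed by −4.48, the synaptic vesicle protein gene *Sv2c* by −4.43 and the chloride channel gene *Clic5* by −4.35. In all 5 genes the ch- median also lay below the lowest ch+ library.

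Most genes of bone formation were lower in late. *Bglap*, the osteocalcin gene (GRCm38 chr3:88383501-88384464), ran from 9.32 over a median of 11.40 to 13.24 in late and from 14.64 over 14.81 to 15.03 in ch+. Late ML1 libraries were lowest, at 9.32 to 10.04, and late HL60 libraries stood at 12.77 to 13.24, still below every ch+ library. The difference was −3.50 (SE 0.41, limma adjusted p = 3.15e-06). *Bglap2* and *Bglap3*, its near-identical neighbours, differed by −3.58 and −3.16; reads may be shared among the 3 copies. *Sp7*, the transcription factor osterix, differed by −1.82, and *Col1a1*, the main collagen of bone, by −2.39, from a median of 19.75 in ch+ to 17.52 in late.

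*Runx2*, the factor that commits cells to this lineage, differed by only −0.37; without the late ML1 libraries it was not called, and on the scale of library totals it stood at 0.25. *Spp1*, osteopontin, was the single called gene of the list that went up, by 0.96, with late at 13.89 to 15.24 and ch+ at 13.06 to 13.86. Altogether 16 of 20 osteoblast genes tested were lower and 1 higher, with a median of −1.54, and 14 were lower and 2 higher, with a median of −0.74, without the late ML1 libraries; 2 were also higher without late 583 or ch+ 539. Summed levels of the list ran from 130400 to 797600 in late and from 1432000 to 1713000 in ch+, with *Col1a1* as the most abundant gene in both groups.

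**Figure D2:**
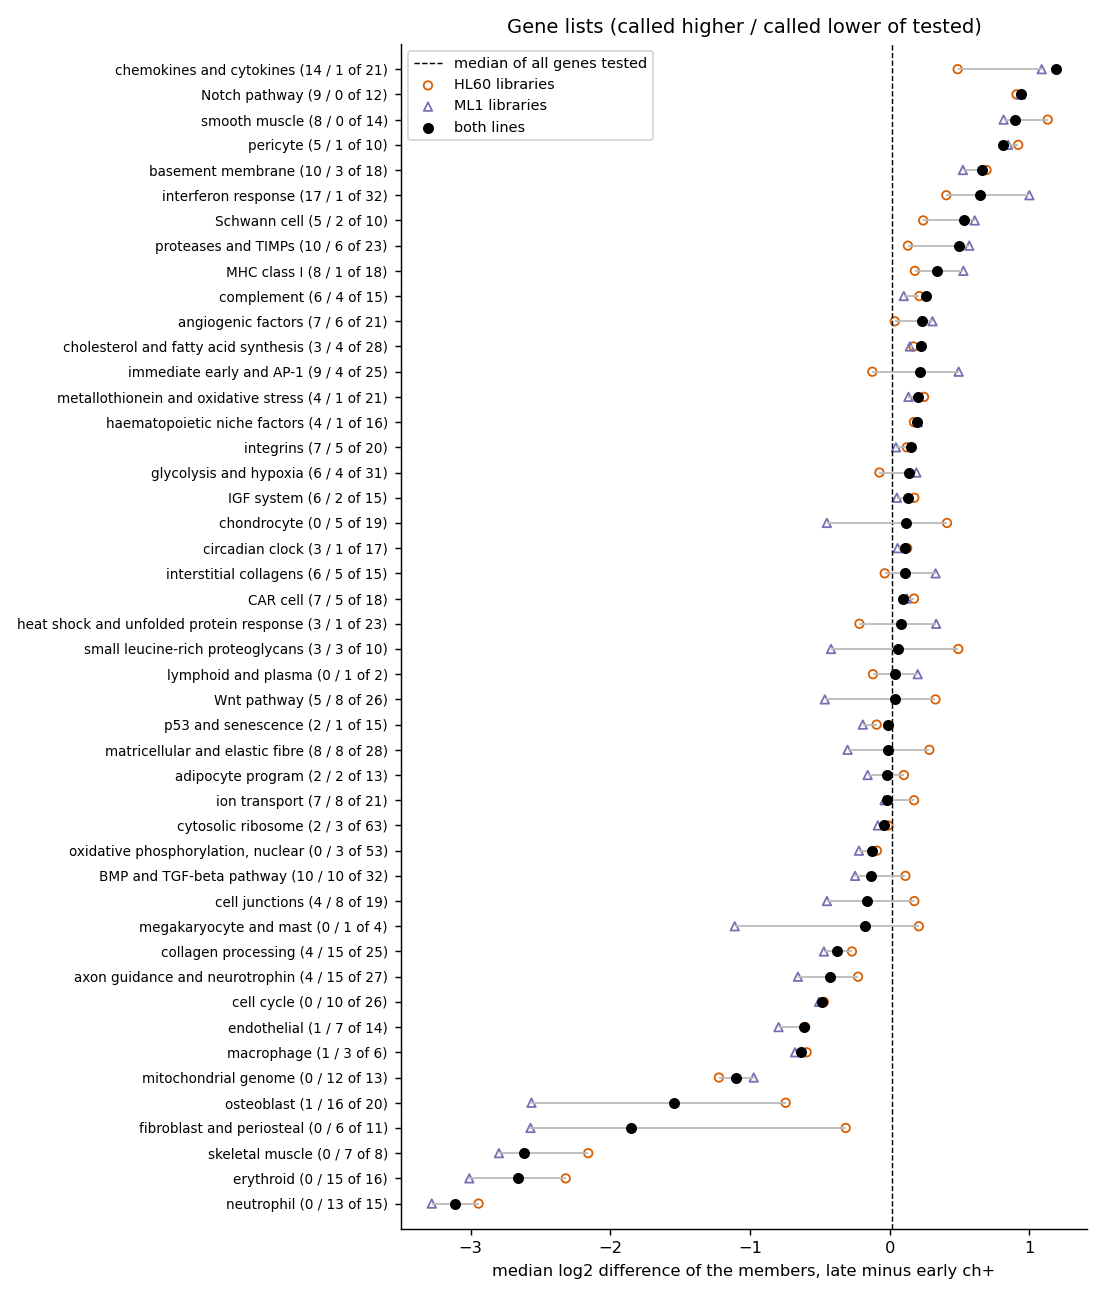
Median log2 difference, late minus early ch+, over the tested genes of each list, for both lines (black), HL60 (orange circles) and ML1 (purple triangles), with called counts beside each name and a dashed line at the median of all genes tested. Osteoblast genes centred on −1.54 and neutrophil genes on −3.11, while Notch pathway genes centred on 0.94 and chemokine and cytokine genes on 1.19.

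Most cartilage genes were not called. *Sox9*, the master factor of chondrocytes, was among them, with medians of 7.43 and 7.21. *Sox5*, its cofactor, differed by −2.14, and the collagen XI chains *Col11a1* and *Col11a2*, also made by osteoblasts, by −2.72 and −2.87. Of 19 chondrocyte genes tested 5 were lower (3, with 1 higher, without the late ML1 libraries), none was higher and the median was 0.12, with 0.41 in HL60 and −0.45 in ML1. A single library turned this sign, with −0.25 without ch+ 525 and −0.03 without ch+ 539, and 1 gene was higher without late 581 and 2 without ch+ 538. On the scale of library totals 9 were higher and 5 lower, with a median of 0.73. The summed level of the list did not overlap, with 6027 to 34620 in late and 46340 to 76250 in ch+. Among fibroblast and periosteal genes, *Ly6a*, the Sca-1 antigen of immature stroma, ran from 7.09 to 8.09 in late and from 9.98 to 11.05 in ch+. That gene differed by −2.86 and *Dpt*, the matrix protein dermatopontin, by −2.58. Of 11 genes of this list tested, which include *Prg4*, 6 were lower and none higher, with a median of −1.85 that was −0.31 in HL60 and −2.57 in ML1. Without the filter on low values 6 of 14 were lower, with a median of −0.38.

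Several contractile genes were higher in late than in ch+. *Tagln*, transgelin of smooth muscle, ran from 7.57 over a median of 8.23 to 8.75 in late and from 5.15 over 6.77 to 7.48 in ch+. The groups did not overlap, but the late libraries stayed below the ctrl libraries at 8.97 to 9.90. *Acta2*, smooth muscle actin, was higher by 1.18 and *Myh11*, the smooth muscle myosin, by 1.02, both with overlapping groups and with late medians of 10.74 and 11.12 under the ctrl medians of 12.24 and 12.68. *Casq2*, a calcium store protein, was higher by 1.66 and *Synpo2*, an actin-binding protein, by 1.51. In the list 8 of 14 genes were higher and none lower, with a median of 0.90 and 6 higher without the late ML1 libraries.

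Pericyte genes were mixed. *Notch3*, the Notch receptor of mural cells, ran from 12.04 to 12.69 in late and from 9.88 to 10.76 in ch+, with a difference of 1.88 (SE 0.15, limma adjusted p = 2.77e-08). *Mcam*, the adhesion molecule CD146, was higher by 1.52, a call lost without the late ML1 libraries. *Rgs5* was not called, with medians of 12.25 and 12.28, and *Cspg4*, the NG2 proteoglycan of pericytes, differed by −1.38. Of 10 pericyte genes tested, 5 were higher and 1 lower, with a median of 0.81, and 3 were higher without the late ML1 libraries. In the fat-cell program, 2 of 13 genes were higher and 2 lower, with a median of −0.02 that was 0.10, with none higher and 1 lower, without the late ML1 libraries and 0.60 on the scale of library totals. The higher count was 1 without late 398, late 583 or ch+ 541, and the median was 0.11 without late 399 or late 583, 0.07 without ch+ 523 and 0.01 without ch+ 538. *Pparg*, its main transcription factor, was not called, with medians of 8.17 and 8.05.

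Among 16 factors that act on blood stem cells and progenitors, 4 were higher and 1 lower, with a median of 0.19. *Tnfsf11*, the osteoclast-inducing ligand RANKL, ran from 8.43 to 8.76 in late and from 6.03 to 7.61 in ch+. It was fully apart and higher by 1.46. *Jag1*, a Notch ligand, was higher by 1.11, and *Bmp4*, a bone morphogenetic protein, was lower by −1.15 with overlapping groups.

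Matrix genes moved both ways by class. In the 15 interstitial collagens tested 6 were higher and 5 lower (median 0.11), with 3 higher and a median of −0.03 without the late ML1 libraries. *Col22a1*, a collagen of tissue junctions, fell from a ch+ range of 11.36 to 11.69 to a late range of 6.91 to 9.75, a difference of −3.12. *Col24a1*, a collagen of developing bone, differed by −2.56 and the transmembrane collagen *Col13a1* by −2.44. *Col3a1*, a fibrillar collagen of soft tissue, was higher by 0.42, which was not called without the late ML1 libraries, without the filter on low values or without the variance trend. *Col5a1*, a regulator of fibril width, differed by −0.53, and by 0.09 on the scale of library totals. Basement membrane genes leaned upward, with 10 of 18 higher and 3 lower and a median of 0.66. *Lama1*, a laminin chain, was higher, with medians of 7.12 and 5.80, and *Col18a1*, the source of endostatin, was higher by 1.30, whereas *Col15a1*, its close relative, differed by −1.72.

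The small leucine-rich proteoglycans, which bind collagen fibrils, had 3 of 10 genes higher and 3 lower, with a median of 0.06 that was −0.42 in ML1 alone, −0.06 without ch+ 525 and −0.01 without late 398. Without the late ML1 libraries 4 were higher and 2 lower, with a median of 0.49. *Dcn*, decorin, differed by −1.90 and *Lum*, lumican, by −1.76, each without overlap. *Omd*, made by osteoblasts, differed by −1.43 and lost its call without the late ML1 libraries. *Bgn*, biglycan, was not called at 0.03, though quantile normalization put it at 0.95 and called it. Among 28 matricellular and elastic fibre genes 8 were higher and 8 lower (median −0.01, 0.60 on the scale of library totals, 0.02 without late 581 and 0.06 without ch+ 539), with 5 lower and a median of 0.28 without the late ML1 libraries. *Ccn5*, a secreted growth regulator, ran from 10.08 to 10.64 in late and from 8.00 to 9.45 in ch+ and was higher by 1.87, while *Sparc*, a collagen-binding protein of bone, differed by −1.53 as deposited and by 0.13, not called, after quantile normalization. *Thbs4*, a thrombospondin, differed by −2.24 and *Ccn3* by −1.65, both not called without the late ML1 libraries.

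Of 23 matrix proteases and inhibitors 10 were higher and 6 lower, with a median of 0.50, and without the late ML1 libraries 6 were higher, 4 lower and the median 0.13. *Adamts4*, an aggrecan-degrading enzyme, was higher by 1.54. The membrane-type metalloprotease gene *Mmp16* differed by −2.26, and *Mmp2*, a gelatinase, by −0.77, not called without the late ML1 libraries. Enzymes and chaperones that build collagen leaned downward as deposited: 15 of 25 were lower and 4 higher, with a median of −0.38. On the scale of library totals 11 were higher and 4 lower, with a median of 0.24. Without the late ML1 libraries 7 were lower. *Pcolce2*, an enhancer of procollagen cleavage, differed by −1.88, again only with the late ML1 libraries, and *P3h2*, a prolyl hydroxylase that acts on basement membrane collagen, was higher by 1.23. Integrin genes had 7 of 20 higher and 5 lower (median 0.16), and 4 higher and 6 lower without the late ML1 libraries. The collagen receptor chain *Itga1* ran from 11.15 to 11.84 in late and from 9.52 to 10.10 in ch+ and was higher by 1.68, whereas *Itgb8*, a chain that activates latent TGF-beta, differed by −2.82 and the cartilage integrin *Itga10* by −2.33.

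Most Notch signalling genes were higher in late. Of 12 tested, 9 were higher and none lower, with a median of 0.94 and 7 higher without the late ML1 libraries. Besides *Heyl*, *Notch3* and *Jag1*, the receptor gene *Notch1* ran from 8.99 to 9.98 in late and from 7.58 to 8.65 in ch+. Its difference was 1.56, and that of the target gene *Hey1* was 1.87, both without overlap. *Notch2* was not called, with medians of 11.28 and 11.13.

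In the Wnt pathway 5 of 26 genes were higher and 8 lower, with a median of 0.04 that was −0.46 in ML1 alone and between −0.09 and −0.03 without late 397, 398 or 399 or ch+ 524, 525 or 541, and without the late ML1 libraries 6 were higher and 5 lower, with a median of 0.33. The higher count was 2 when late 399 was left out and to 3 without late 397, late 583, ch+ 524 or ch+ 539. *Frzb* and *Dkk1*, secreted inhibitors of the pathway, differed by −2.14 and −1.53, and the receptor gene *Fzd6* by −1.82. The BMP and TGF-beta list had 10 of 32 higher and 10 lower (median −0.13, and 0.48 on the scale of library totals), with 6 higher, 7 lower and a median of 0.11 without the late ML1 libraries. *Tgfb3*, a TGF-beta ligand, ran from 10.06 to 10.88 in late and from 8.18 to 9.46 in ch+. It was higher by 1.82, while *Bmp3*, an antagonist-like ligand of bone, differed by −2.18, the pseudoreceptor gene *Bambi* by −1.85 and *Bmp2* was not called at 0.02.

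Of 15 genes of the insulin-like growth factor system 6 were higher and 2 lower, with a median of 0.13. Without the late ML1 libraries 3 were higher and 1 lower, and without ch+ 524 the lower count was 4. *Igfbp3*, a carrier of the growth factor, was higher by 1.68 and *Igfbp7* by 1.21, both fully apart. *Igfbp6* was lower, with medians of 5.48 and 6.52, not called without the late ML1 libraries. Angiogenic factors had 7 of 21 higher and 6 lower (median 0.23, 0.04 with 3 lower without the late ML1 libraries). *Angpt2*, which destabilizes vessels, ran from 9.54 to 10.63 in late and from 7.70 to 8.94 in ch+ and was higher by 1.73. The axon guidance ligands *Sema3c* and *Sema3a* were among the larger decreases, at −3.78 and −3.14, with late libraries at 4.12 to 6.30 for *Sema3c* against 8.86 to 9.27. The wider axon guidance and neurotrophin list had 15 of 27 genes lower and 4 higher, *Ngfr* among them, with a median of −0.43 that turned to 0.19 on the scale of library totals. Without the late ML1 libraries 11 were lower and 3 higher, with a median of −0.23.

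Among chemokine and cytokine genes most calls were higher in late. *Il6*, interleukin 6, ran from 4.71 over a median of 6.12 to 7.29 in late and from 3.22 over 4.09 to 4.73 in ch+. The groups met at a single pair of libraries. *Il6* was higher by 2.08, *Cxcl10*, an interferon-induced chemokine, by 2.04, and *Ccl2*, which attracts monocytes, by 1.58, yet none of these 3 was called without the late ML1 libraries. *Cxcl9*, another interferon-induced chemokine, was higher by 1.92 and kept its call at 1.64. In the list 14 of 21 genes were higher and 1 lower, with a median of 1.19, which became 6 higher and 1 lower with a median of 0.49 without the late ML1 libraries.

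Interferon response genes had 17 of 32 higher and 1 lower, with a median of 0.65, but only 4 higher, with a median of 0.41, without the late ML1 libraries. *Gbp2*, a guanylate-binding protein, ran from 8.10 to 9.40 in late and from 6.48 to 7.20 in ch+. It was higher by 1.77 (SE 0.21, limma adjusted p = 4.69e-06), and by 1.86 in HL60 alone. *Zbp1*, a nucleic acid sensor, was higher by 1.54 with no overlap. *Isg15*, a ubiquitin-like protein, was higher by 1.00, not called without the late ML1 libraries or without the filter on low values, and *Rsad2*, the antiviral viperin gene, was the single lower one at −1.54. Of 18 genes of MHC class I presentation 8 were higher and 1 lower (median 0.34), the lower call lost on leaving out most single libraries and 2 lower without late 399, with none higher and a median of 0.18 without the late ML1 libraries, *H2-K1* at 0.47 and the immunoproteasome gene *Psmb8* at 0.97 among the lost calls.

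Complement genes had 6 of 15 higher and 4 lower, with a median of 0.26, and 4 higher and 2 lower without the late ML1 libraries; the higher count was 3 without late 397, late 581 or late 583, and the lower count 2 without late 582. The protease genes *C1s1* and *C1ra* were higher by 0.96 and 0.55, while the membrane inhibitors *Cd55* and *Cd59a* differed by −0.88 and −1.60.

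Immediate early genes had 9 of 25 higher and 4 lower, with a median of 0.22, and 1 higher and 4 lower with a median of −0.12 without the late ML1 libraries. The lower count was 2 without late 399 or late 581. *Fos*, the AP-1 subunit, was not called, with medians of 13.16 and 13.25. *Klf4*, a zinc finger factor, differed by −1.13 without overlap, and *Atf3*, a stress-induced factor, by −0.95. In the heat shock and unfolded protein list 3 of 23 were higher and 1 lower (median 0.08; none lower without late 398 or ch+ 538, 2 without late 399 or late 583), against 1 higher and 4 lower (median −0.22) without the late ML1 libraries, with *Hspb1* higher by 1.13 and the mitochondrial chaperone gene *Hspd1* by 0.76, neither called without the late ML1 libraries or without the filter on low values. *Hspb1* was not called under robust moderation of the variance either.

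Among 21 metallothionein and oxidative stress genes 4 were higher and 1 lower, with a median of 0.20. *Gstm1*, a glutathione transferase, was higher by 0.76, and *Gpx1*, a glutathione peroxidase, differed by −1.24. Of 15 genes of the p53 response and senescence 2 were higher and 1 lower (median −0.01, 0.60 on the scale of library totals, 0.02 without late 583 and 0.04 without ch+ 541), with 2 lower without late 398, late 399, ch+ 525 or ch+ 538 and 3 without ch+ 523, and none was called, with a median of −0.09, without the late ML1 libraries, with the p53 target *Phlda3* higher by 0.83 over all 12 libraries.

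The cell cycle list held lower genes and no higher one, with most members not called. *Mki67*, the Ki-67 antigen of cycling cells, ran from 7.10 over a median of 7.90 to 8.48 in late and from 9.50 over 10.10 to 10.47 in ch+. The groups did not overlap, and ctrl libraries at 8.96 to 9.01 lay between them. The difference was −2.09 (SE 0.23, limma adjusted p = 1.15e-06). *Ccna2*, cyclin A, differed by −1.91 and *Top2a*, topoisomerase II, by −1.71. Of 26 cell cycle genes 10 were lower and none higher, with a median of −0.48 that was 0.13 on the scale of library totals, and 5 were lower without the late ML1 libraries. Erythroid and neutrophil genes moved with these genes, and their part in the result was not tested.

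All but 1 of the 13 protein genes of the mitochondrial genome were lower, none was higher and the median was −1.10. *mt-Nd5*, a subunit of complex I, ran from 12.35 to 13.04 in late and from 13.70 to 14.11 in ch+, and ctrl libraries, at 12.81 to 13.05, were close to late. Its difference was −1.23 (SE 0.12, limma adjusted p = 2.40e-07), and *mt-Co1*, a subunit of complex IV, differed by −1.27, *mt-Nd4* by −1.26 and *mt-Nd1* by −1.14. Summed levels of these genes ran from 63050 to 104300 in late and from 155200 to 207900 in ch+. The ch- libraries spanned 146300 to 206900, and those of ctrl 87180 to 102000. The erythroid and neutrophil sums were likewise high in both early groups and low in late and ctrl, and their part in this result was not tested. The nuclear genes of oxidative phosphorylation did not follow, with 3 of 53 lower, none higher and a median of −0.13 that was 0.49 on the scale of library totals; 1 was lower without the late ML1 libraries, and 1 or none without late 398, 399, 582 or 583 or ch+ 523 or 541. The ribosomal protein genes were close to flat, with 2 of 63 higher, 3 lower and a median of −0.04 (0.58 on the scale of library totals); the higher count was 3 without the late ML1 libraries and 4 without ch+ 539. *Rpl41* differed by −0.40, with 0.21 on the scale of library totals, and *Rplp2* by 0.44.

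Of 31 genes of glycolysis and hypoxia 6 were higher and 4 lower, with a median of 0.14. Without the late ML1 libraries 3 were higher, none was lower and the median was −0.07, and 2 were lower without late 398, late 582 or late 583. *Epas1*, the hypoxia-inducible factor 2 subunit, ran from 13.51 to 14.25 in late and from 12.51 to 12.96 in ch+. It was higher by 1.18 without overlap, and *Ddit4*, an inhibitor of growth signalling under stress, by 0.92, not called without the late ML1 libraries. Cholesterol and fatty acid genes had 3 of 28 higher and 4 lower (median 0.23), and 1 higher and 2 lower without the late ML1 libraries; 5 were higher without late 398, and 2 lower without late 581 or ch+ 539. *Abca1*, a cholesterol exporter, differed by −1.45 and the desaturase gene *Scd1* by −0.83.

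Circadian clock genes had 3 of 17 higher and 1 lower, with a median of 0.11, and none higher without the late ML1 libraries; the lower one was *Bhlhe40*, a repressor of the clock, at −0.89, and 2 were lower without late 398 or ch+ 523. Ion transport genes had 7 of 21 higher and 8 lower (median −0.02, 0.59 on the scale of library totals and from 0.01 to 0.14 without any of 8 single libraries), against 3 and 4 (median 0.18) without the late ML1 libraries, among them the potassium channel gene *Kcnk3*, higher by 1.95. In the cell junction list 8 of 19 were lower and 4 higher, with a median of −0.16, 0.46 on the scale of library totals; without the late ML1 libraries 4 were lower and the median was 0.18. *Pcdh7*, a protocadherin, differed by −2.46, the adhesion molecule *Alcam* by −1.98 and N-cadherin, *Cdh2*, by −0.38, with 0.23 for *Cdh2* on the scale of library totals and no call without the late ML1 libraries.

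The cell lines were compared by the difference of their stage differences (HL60 minus ML1), which limma called for 384 genes, 2.96% of those tested, 251 positive and 133 negative. Of these, 228 were also called for stage and 174 had opposite signs in the lines. In 159 of the positive genes both lines were lower in late, ML1 by more. The total of 384 moved with settings: it was 143 without the filter on low values, 202 without the variance trend, 246 without late 398 and 252 without late 583. Since the late ML1 libraries are those with the contradicting label, line and label cannot be told apart here. The late ML1 libraries had median correlations of 0.887 to 0.900 with ctrl and 0.955 to 0.963 with late libraries. For late HL60 the values with ctrl were 0.926 to 0.928. Whether the label is an error was not tested.

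Many osteoblast genes differed between the lines. For *Bglap* the stage difference was −1.77 in HL60 and −5.23 in ML1, a difference between lines of 3.46 (SE 0.23, limma adjusted p = 1.21e-08). Of 20 osteoblast genes 16 were called in this direction, among them *Col1a1* with −1.11 in HL60 and −3.67 in ML1, and *Sp7* with −0.90 and −2.74. Further matrix and lineage genes followed, such as *Serpinf1*, an inhibitor of vessel growth, with −0.54 and −2.88, and *Car3*, a carbonic anhydrase, with −1.61 and −4.23. *Col22a1* had −1.81 and −4.42, *Prg4* −3.99 and −6.46, and *Itga6* −3.48 and −5.59. In each of these genes both lines were lower in late, and the ML1 value was the lower.

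Many immediate early and some heat shock genes differed the other way, as did 6 of 21 chemokine and cytokine genes. *Hsph1*, a heat shock protein, stood at 10.66 to 11.78 in late ML1 and 8.29 to 9.18 in late HL60, with 8.79 to 10.38 over the ch+ libraries. Late ML1 lay above the whole ch+ range, and late HL60 overlapped its lower end. The stage difference was −1.26 in HL60 and 2.04 in ML1, with a difference between lines of −3.31 (SE 0.41, limma adjusted p = 5.01e-05), and the average of 0.39 over both lines, not called, therefore described neither. *Hspb1* had −0.08 in HL60 and 2.35 in ML1. *Hspa1b*, whose reads are shared with a near-identical neighbour, had −0.52 and 1.42. *Ccl2* had 0.20 and 2.96, and *Dusp1*, a phosphatase induced by stress, −0.46 and 0.67. Among the immediate early genes 11 of 25 and among the heat shock genes 7 of 23 were called with the higher signed value in ML1. *Igf1*, a growth factor of marrow stroma, went the opposite way, with 1.01 in HL60 and −0.55 in ML1.

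**Figure D3:**
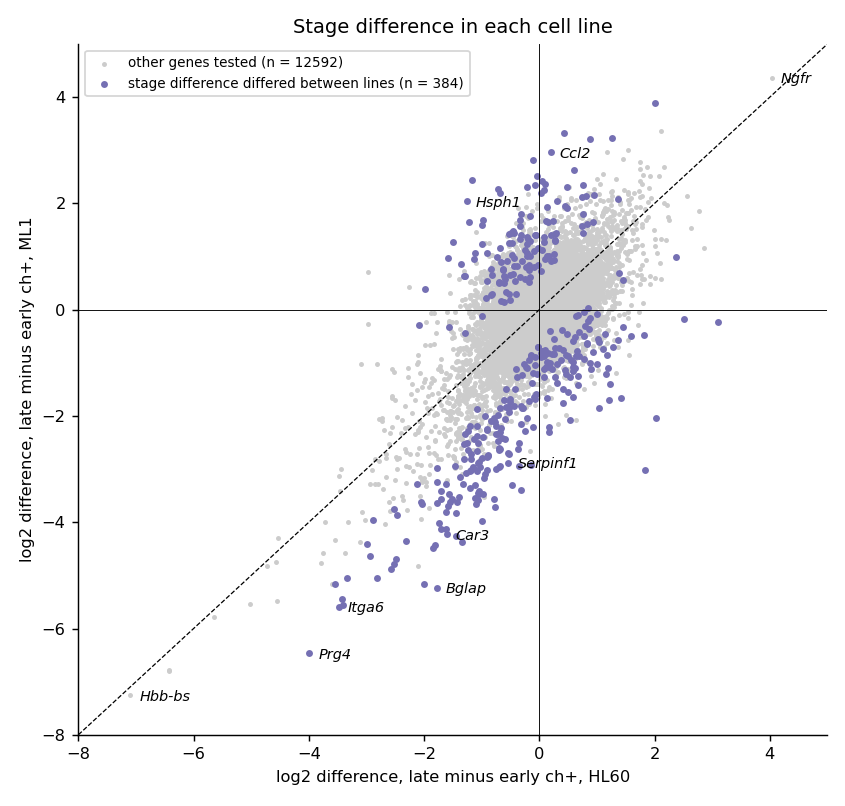
Stage difference (log2, late minus early ch+) in HL60 on the horizontal axis and in ML1 on the vertical axis, with 1 point per gene tested and genes called for stage by cell line in colour. *Bglap* lay at −1.77 and −5.23, below the diagonal, and *Hsph1* at −1.26 and 2.04, above it.

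With 6 libraries against 6, the smallest p of an exact permutation test of a single value would be 0.00216, while the calls rest on limma's moderated variances over all genes. Levels compare between libraries and not between genes, since the values are not divided by transcript length.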

How the data were processed

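RNA-seq of sorted Nes low cells was used for 12 of 21 libraries. According to the submitters' processing notes, STAR 2.5.1b placed the stranded read pairs on mm10, RSEM 1.2.29 gave counts per gene and DESeq2 1.10.1 regularized them, where the authors' methods name a later version of that package. The values deposited by the authors are regularized log2 levels, from −2.33 to 22.44, although the methods speak of another base. Only 0.145% of converted values were whole within 0.001, so depth per library is unknown and no count test was run. Genes with a mean of at least 3.32 over all 21 columns were kept, 12976 of 26852. Late and early ch+ were compared in limma 3.58.1 (R 4.3.3) with cell line as an additive term and a variance trend, two-sided, with Benjamini-Hochberg adjustment. The interaction of stage and line was fitted on the same libraries. The method was tested on simulated data made from the residuals of the 12 libraries. It called 3 of 50 genes with a log2 change of 0.5, 27 of 50 with 1, 48 of 50 with 2 and 50 of 50 with 4. Of 12776 unchanged genes it called 12. A gene not called can therefore still differ by 1 or less.

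Genes were named by rule: in each list the 3 called members with the largest absolute difference and the first 2 listed; the 10 higher and 10 lower called genes of largest absolute difference among those with a mean of at least 5 whose late libraries lie beyond all ch+ libraries, and the same beyond ctrl as well; *Nes*, *Ptprc* and *Pecam1*; and, for stage by line, 5 genes per direction by smallest p. Not every gene so chosen is printed, and some withheld items are not reported here. *Spp1* and *Col1a1*, the most abundant gene of each list and markers under the filter were chosen after their values were seen. The comparison, its libraries and the lists were chosen with earlier results of these data known, although the rule for the libraries uses their titles only. Positions are those of Ensembl on GRCm38. Plots were made in matplotlib 3.10.9 under Python 3.11.15.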

Additional observations from a re-analysis of the deposited data

Results flagged for a closer look

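A library stood far from the other 5 of its group, by Dixon's criterion, in 15 of 320 groups of values examined, where chance gives about 5%. The log2 levels concerned were *Nes* at 6.61 in ch+ 541, *Ngp* at 4.19 in late 397, *Bgn* at 15.30 in ch+ 525 and *Casq2* at 4.54 in the same library. Further ones were *Cspg4* at 7.16 in late 582, *Tnfsf11* at 6.03 and *Jag1* at 7.19 in ch+ 541, *Col3a1* at 13.68 in late 399, *Col5a1* at 11.91 in late 582 and *Mmp2* at 11.69 in ch+ 538. *Igfbp3* was at 13.74 in late 398, *Rplp2* at 9.91 in ch+ 539, and *Kcnk3* at 4.24 in late 582 and 4.75 in ch+ 524. The sum of converted values of ch+ 525 was 11.2 M (mega units), the lowest of its group. Leaving out any of these libraries changed no stage call or direction of a named gene.

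The stage difference differed between HL60 and ML1 by the interaction test for 384 genes. The difference of log2 differences, HL60 minus ML1, was 3.46 for *Bglap*, 3.16 for *Bglap2*, 2.64 for *Bglap3*, 2.56 for *Col1a1* and 1.85 for *Sp7* among bone genes. For *Prg4* it was 2.47, for *Itga6* 2.11, for *F13a1* 2.15, for *Sv2c* 2.02 and for *Clic5* 1.61. Collagen genes gave 2.19 for *Col11a1*, 2.51 for *Col11a2*, 2.61 for *Col22a1*, 1.69 for *Col24a1* and 1.66 for *Col13a1*. Other matrix genes gave 1.80 for *Dcn*, 1.04 for *Lum*, 2.17 for *Omd*, 1.77 for *Sparc*, 2.59 for *Ccn3*, 2.96 for *Thbs4*, 2.39 for *Mmp16*, 0.94 for *Mmp2*, 2.82 for *Pcolce2* and 2.52 for *Itga10*. Signalling and membrane genes gave 2.78 for *Bmp3*, 1.56 for *Igf1*, 1.39 for *Igfbp3*, 1.24 for *Sema3a*, 1.69 for *Sema3c*, 1.77 for *Cd59a*, 1.34 for *Abca1* and 2.13 for *Pcdh7*. *Serpinf1* gave 2.34 and *Car3* 2.62. Negative values, where the signed stage difference was higher in ML1, were −1.87 for *Serpina3h*, −1.97 for *Serpina3f*, −2.76 for *Ccl2*, −2.33 for *Cxcl10*, −1.24 for *Atf3*, −1.95 for *Hspa1b*, −2.42 for *Hspb1*, −3.31 for *Hsph1* and −1.13 for *Dusp1*. The calls of *Serpina3h*, *Serpina3f*, *Sv2c*, *Col13a1*, *Igfbp3*, *Sema3a* and *Cxcl10* in this test were each lost on leaving out several single libraries.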

How the results depend on the processing

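The stage calls numbered 2798 (1295 higher, 1503 lower). Rescaling to library totals gave 9356 (8754 higher, 602 lower), an absolute log2 difference of at least 1 gave 1057 (379 and 678), HL60 alone 1549 (690 and 859), and leaving out the 3 late ML1 libraries 1309 (543 and 766). ML1 alone gave 2387 (1053 and 1334) from the same number of libraries as HL60 alone. Leaving out each library in turn gave 2394 to 2795 calls, with 1071 to 1305 higher and 1323 to 1490 lower. Stage by cell line, 384 genes, gave 143 without the filter, 202 without the variance trend, 234 at an adjusted p under 0.05, 246 to 403 leaving out single libraries and 622 with library totals, the last chosen after seeing the data. Genes that changed sign, with a call in at least 1 of the compared fits, were, with library totals, *Runx2* at 0.25, *Col5a1* at 0.09, *Fos* at 0.52, *Rpl41* at 0.21 and *Cdh2* at 0.23; with quantile normalization *Sparc* at 0.13; and in ML1 alone *Igf1* at −0.55. In HL60 alone they were *Hspa1b* at −0.52, *Hspb1* at −0.08, *Hsph1* at −1.26 and *Dusp1* at −0.46, and without the late ML1 libraries *Hspb1* at −0.08, *Hsph1* at −1.26 and *Dusp1* at −0.46; *Hspa1b* was at −0.52 there too, not called. The cause was not tested. No named gene lost its stage call or direction when a single library was left out. With library totals, 9 of the 158 named genes lost their call without a change of sign, and 13 gained one. Counts of called list members moved by over 1.5 times in further settings. Without the filter, higher counts were 2 for niche factors, 1 for small leucine-rich proteoglycans, Wnt, heat shock, cholesterol, clock and adipocyte genes, 5 for matricellular, 10 for interferon and 4 for immediate early genes, and lower counts 12 for skeletal muscle and 2 for complement, immediate early and cholesterol genes. Without the variance trend, lower counts were 2 for CAR cell, glycolysis and cholesterol genes and 5 for oxidative phosphorylation, and 3 higher for the IGF system. A mean of at least 5, with fewer genes tested, left 7 neutrophil and 2 skeletal muscle genes lower and 3 Schwann cell genes higher, and put the ion transport median at 0.49. The fit of all 21 libraries gave 7 heat shock genes higher. Depth per library is unknown, and small changes of low genes are shrunk by the regularization. For stage by line, the fit of all 21 libraries, centring and the fold threshold were also chosen after seeing the data. No paired analysis was possible because the groups share no replicate numbers.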
